A study of Mus musculus with 18 samples.

Results

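The DNA-binding cores of Foxa1 and Foxa2 were compared in 4 chimeric proteins that each carried 1 terminal domain of Foxa3. They were chosen by their labels: Foxa1 carrying Foxa3's N-terminal domain (called Foxa1-N3 here), Foxa1 carrying Foxa3's C-terminal domain (Foxa1-C3), and Foxa2 with the same exchanges (Foxa2-N3 and Foxa2-C3). The assay was chromatin immunoprecipitation followed by sequencing (ChIP-seq), and each construct had 1 peak list, so 4 of the 9 peak lists of the series, which holds 18 samples with inputs, entered the comparison. The peaks of the 4 lists, merged where they overlap, made 15614 regions, and those of all 8 Foxa lists made 24999.

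All 4 preparations were C57BL/6 mouse embryonic fibroblasts, taken at 13.5 days post coitum and turned into induced hepatocyte-like (iHep) cells by infection with Hnf4alpha, a liver nuclear receptor, plus 1 chimera. Foxa1-N3 and Foxa2-N3 were both precipitated with a Foxa3 antibody, Foxa1-C3 with a Foxa1 antibody and Foxa2-C3 with a Foxa2 antibody. The promoter that drives the chimeras, the amino acids at which domains were joined, and whether cells were pooled or cloned are not stated in any label.

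Foxa proteins are forkhead transcription factors. Their central forkhead domain, a winged-helix fold, contacts DNA and is nearly the same in Foxa1, Foxa2 and Foxa3, whereas the N- and C-terminal domains that flank it are less alike and hold the regions that activate transcription and contact histones. Foxa factors are known as pioneer factors, which can bind sites in closed chromatin, and Foxa1 and Foxa2 act early in liver development.

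The design has limits that touch every value below. With the Foxa3 domain at the N terminus, the constructs differ in the core and in the C-terminal domain, which stays with its core. With the Foxa3 domain at the C terminus they differ in the core, in the N-terminal domain and in the antibody. The core therefore cannot be told apart from the terminal domain that comes with it. Within a core, the 2 constructs differ in layout and in antibody, which cannot be told apart either. There is 1 library per construct, and 2 constructs against 2 allow no exact permutation p below 0.333, so no test between the cores is given. Intervals are 95% Wilson intervals, which cover counting error only, and the read depth of the libraries is unknown because the files list peaks. Peaks have no gene names here because no genome or annotation of their build, mm9, was at hand.

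The Foxa2 core gave the longer list in both layouts. Foxa1-N3 had 956 peaks and Foxa2-N3 had 5230, a ratio of 5.47. Foxa1-C3 had 4807 and Foxa2-C3 had 13715, a ratio of 2.85. Within a core, the layout went with ratios nearly as large: Foxa1-C3 had 5.03 times as many peaks as Foxa1-N3, and Foxa2-C3 had 2.62 times as many as Foxa2-N3. Because a longer list holds more sites by itself, most comparisons below use the 956 strongest peaks of each list, ranked by the authors' score within the list; this is called equal length. The score floor then differs, from 5.29 in Foxa1-N3 (the whole list) to 30.9 in Foxa2-N3, 35.8 in Foxa1-C3 and 84.6 in Foxa2-C3.

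Sites found in both lists of 1 core and in neither list of the other were few. At equal length the peaks fell into 2128 regions. A peak in both Foxa1-core lists and in neither Foxa2-core list was found in 28 regions, which is 1.32% of all regions, and the reverse in 53 regions (2.49%). Regions held by exactly the Foxa1-N3 and Foxa2-N3 lists, which share the layout, numbered 153, and those held by exactly Foxa1-C3 and Foxa2-C3 numbered 149. The pairs of lists that share neither core nor layout each held 34 regions of their own, Foxa1-N3 with Foxa2-C3 and Foxa1-C3 with Foxa2-N3. The 2 core-only counts therefore stand on either side of the count for lists that share neither core nor layout. All 4 lists held a peak in 248 regions (11.7%).

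**Figure D1:**
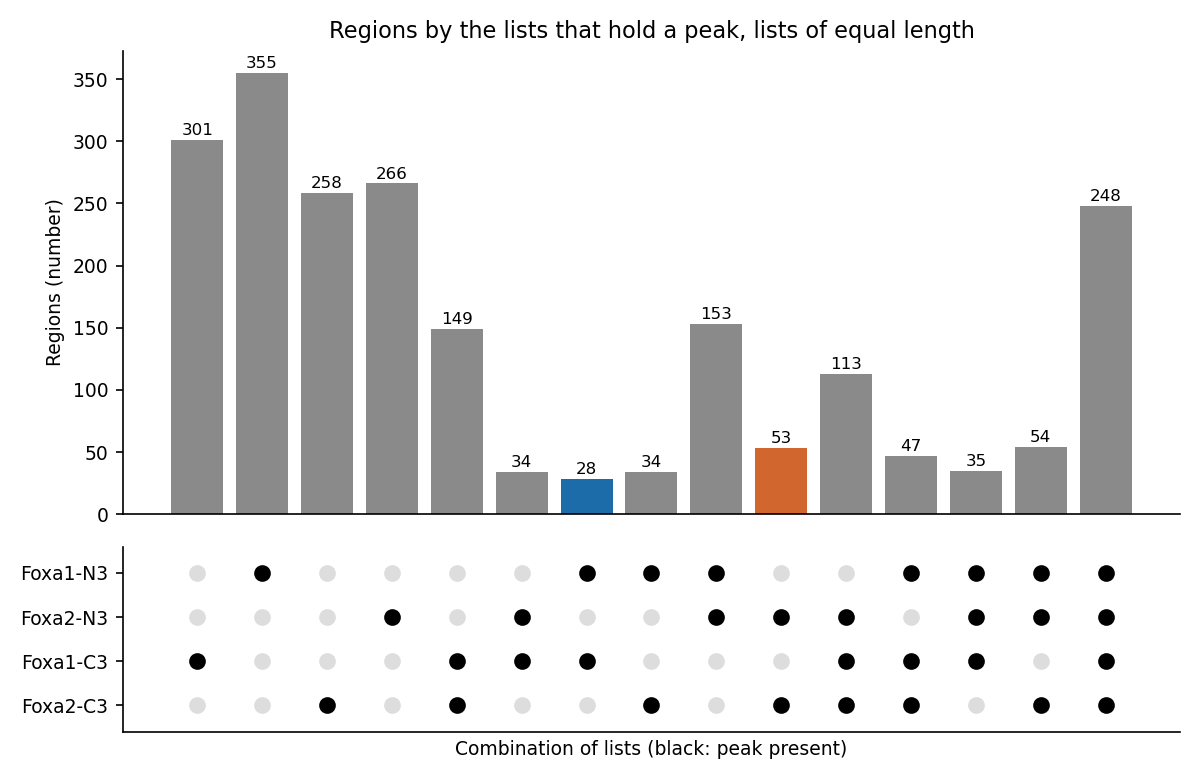
Number of merged regions (vertical axis) for each combination of the 4 lists, each cut to its 956 strongest peaks; black dots mark the lists with a peak. The blue bar (28 regions, both Foxa1-core lists) and the orange bar (53 regions, both Foxa2-core lists) are lower than those of the pairs with the same layout (153 and 149).

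With the full lists the counts followed list length. In both Foxa1-core lists and no Foxa2-core list there were 5 regions (0.032% of 15614), while 1627 regions (10.4%) lay in both Foxa2-core lists and no Foxa1-core list. The Foxa1 side is bounded here by the 956 peaks of Foxa1-N3. Without that list, with Foxa1-C3 and both Foxa2-core lists cut to 4807 peaks each, 675 of 8695 regions (a share of 0.0776) were held by both Foxa2-core lists and not by Foxa1-C3. At that length 932 (0.107) were held by both C3 lists and not by Foxa2-N3, and 440 (0.0506) by Foxa1-C3 and Foxa2-N3 without Foxa2-C3.

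Most core-only regions also carried a peak with the other core, which by the way they were chosen ranked beyond 956. Of the 28 Foxa1-core regions, 26 met a peak somewhere in the full Foxa2-C3 list, at a median rank of 2267 (from 975 to 12024), and 20 met one in the full Foxa2-N3 list, at a median rank of 2051 (from 999 to 5043). Of the 53 Foxa2-core regions, 51 met a peak in the full Foxa1-C3 list, at a median rank of 1743 (from 1051 to 4718). The Foxa1-N3 list ends at rank 956 and could add none. Most of all 956 strongest peaks met these full lists too, counting matches at any rank. Of those of Foxa1-N3 and Foxa1-C3, 86.1% and 96.4% met the full Foxa2-C3 list, and 87% and 77.4% the full Foxa2-N3 list. Of those of Foxa2-N3 and Foxa2-C3, 80.8% and 91.5% met the full Foxa1-C3 list. The counts for core-only regions are therefore no trait of these regions alone. In each direction 2 regions were left with no peak of the other core at any rank.

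By median rank, core-only regions lay beyond rank 478 in each of their own lists. Their choice from lists cut to 956 peaks bounds these ranks at 956. It also leaves out strong sites that both cores share. The medians therefore cannot decide whether core-only sites are weak, and no reference set was compared. The 28 Foxa1-core regions had a median rank of 568 in Foxa1-N3 (from 126 to 944) and of 632 in Foxa1-C3 (from 57 to 952). The 53 Foxa2-core regions had a median rank of 645 in Foxa2-N3 (from 75 to 920) and of 524 in Foxa2-C3 (from 210 to 954).

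For the 5 Foxa1-core regions with the best mean rank, the ranks below come from lists of 956 (Foxa1-N3), 4807 (Foxa1-C3), 5230 (Foxa2-N3) and 13715 peaks (Foxa2-C3) and are a description. The first, on chromosome 5 (132186864 to 132187457), ranked 126 in Foxa1-N3 and 120 in Foxa1-C3, against 1518 in Foxa2-N3 and 1127 in Foxa2-C3. On chromosome 7 (26294935 to 26295460) the ranks were 309 and 57 with the Foxa1 core and 1081 and 2757 with the Foxa2 core. A region on chromosome 1 (59546424 to 59546950) had ranks of 303 and 162 against 3622 and 8233. The others lay on chromosome 13 (20641728 to 20642269), where Foxa2-N3 ranked it 3123, and chromosome 10 (115563106 to 115563710), where Foxa2-N3 ranked it 1109. All 5 had a peak in each Foxa2-core list. In 3 of them the authors' score was higher in Foxa2-N3 than in Foxa1-N3, on chromosome 5 (24.5 and 21.3), chromosome 7 (29.3 and 15.9) and chromosome 10 (28.8 and 20.5). Between the C3 lists the score was higher in Foxa2-C3 on chromosome 10 alone (52.9 and 47.6). It was higher in Foxa1-C3 on chromosomes 5 (97.2 and 77.1), 7 (129 and 46), 1 (86.9 and 18.5) and 13 (71 and 57.1). A poorer rank in the longer list therefore did not always go with a lower score. Scores of different libraries may differ in scale, since depth and the kind of score are unknown.

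The 5 Foxa2-core regions with the best mean rank are given with their ranks in Foxa1-C3, again from lists of unequal length. A region on chromosome 18 (44125467 to 44126459) ranked 194 in Foxa2-N3 and 240 in Foxa2-C3, and 1839 in Foxa1-C3. On chromosome 1 (68512688 to 68513507) the ranks were 75 and 399 against 3030. A region on chromosome 19 (29202723 to 29203303) ranked 330 and 351 against 3770. The remaining 2 lay on chromosome 13 (94950171 to 94950764) and chromosome 7 (149695240 to 149696000), with Foxa1-C3 ranks of 1066 and 1251. None of the 5 was in the Foxa1-N3 list, and all had a peak in Foxa1-C3.

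The 4 regions with no peak of the other core were looked up after their values were seen. With the Foxa1 core, a region on chromosome 6 (101167775 to 101168275) ranked 563 in Foxa1-N3 and 442 in Foxa1-C3, and the nearest Foxa2-core peak lay 366690 bases away. Another, on chromosome 14 (61452425 to 61452913), ranked 524 and 768, with the nearest Foxa2-core peak 22339 bases away. With the Foxa2 core, a region on chromosome 13 (45365604 to 45366237) ranked 780 in Foxa2-N3 and 337 in Foxa2-C3, and a Foxa1-C3 peak lay 7782 bases away. One on chromosome 4 (98277028 to 98277629) ranked 873 and 901, with the nearest Foxa1-C3 peak 246338 bases away. None of the 4 was particular to its core in the whole series, since each also carried a peak in 2 or more of the 4 lists of Foxa3-core constructs.

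A difference between the cores in 1 layout seldom recurred in the other. Of 464 regions found at equal length in Foxa1-N3 and not in Foxa2-N3, 28 (6.03%) were also found in Foxa1-C3 and not in Foxa2-C3, whereas 34 (7.33%) showed the opposite and 355 (76.5%) were in neither C3 list. Of 466 regions found in Foxa2-N3 and not in Foxa1-N3, 53 (11.4%) recurred with the same core and 34 (7.3%) with the other. Over both directions, 81 of the 149 regions that differed in both layouts differed the same way (54.4%, 46.4 to 62.2%) and 68 the opposite way. Cutting the lists to 478 peaks gave 47 regions the same way and 48 the opposite way (49.5%, 39.6 to 59.4%). Cutting them to 239 gave 22 and 31 (41.5%, 29.3 to 54.9%). The intervals at all these lengths overlap and include an even split, so neither a direction nor a turn with list length is shown.

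By the mean index, whole lists resembled each other more by layout than by core. Similarity was measured by the Jaccard index, the number of regions held by both lists divided by the number held by either. At equal length it was 0.345 (0.321 to 0.370) for Foxa1-N3 with Foxa2-N3 and 0.411 (0.385 to 0.438) for Foxa1-C3 with Foxa2-C3. The lists of the same core were less alike, at 0.231 (0.210 to 0.252) for the Foxa1 pair and 0.324 (0.300 to 0.349) for the Foxa2 pair. The intervals of the N3 pair and the Foxa2 pair overlap. The pairs that share neither had 0.251 (Foxa1-N3 with Foxa2-C3) and 0.290 (Foxa1-C3 with Foxa2-N3). The mean of the same-core pairs, 0.277, was near that of the pairs with neither in common, 0.27, and below that of the same-layout pairs, 0.378. Both same-core pairs were precipitated with different antibodies, whereas the N3 pair shares the Foxa3 antibody. The part of the antibody in these means was not tested.

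At equal length the highest index belonged to the C3 constructs, which were precipitated with different antibodies and share the Foxa3 C-terminal domain alone. With the full lists it belonged to Foxa1-C3 with Foxa2-N3 (0.31), which share neither core nor layout but are the closest in length, ahead of the C3 pair (0.278) and the Foxa2 pair (0.274). Without Foxa1-N3 and with 4807 peaks per list, the 3 remaining pairs had the order seen at 956 peaks. The index was 0.405 (0.393 to 0.416) for the C3 pair, 0.354 (0.343 to 0.365) for the Foxa2 pair and 0.31 (0.300 to 0.321) for Foxa1-C3 with Foxa2-N3. The Foxa2 pair stood above Foxa1-C3 with Foxa2-N3 at both lengths, though at 956 peaks their intervals overlap (0.300 to 0.349 and 0.268 to 0.314). At 956 peaks it also stood above Foxa1-N3 with Foxa2-C3. The Foxa1 pair stood below both pairs that share neither at 956 peaks, with an interval (0.210 to 0.252) that overlaps that of Foxa1-N3 with Foxa2-C3 (0.230 to 0.273).

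Strong sites were found with either core, and the share fell with rank. Of the 478 strongest Foxa1-C3 peaks, 470 (98.3%) met a Foxa2-C3 peak, and of the 478 strongest Foxa2-C3 peaks, 469 (98.1%) met a Foxa1-C3 peak. In the stretch from rank 4303 to 4780 these shares were 68.8% and 28.9%. In the other layout, 444 of the 478 strongest Foxa1-N3 peaks (92.9%) met a Foxa2-N3 peak, but 324 of the 478 strongest Foxa2-N3 peaks (67.8%) met a Foxa1-N3 peak and 17 (3.56%) did so from rank 4303 to 4780. The lower shares in the longer list go with the shorter list it was compared with, and their part in the result was not tested.

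**Figure D2:**
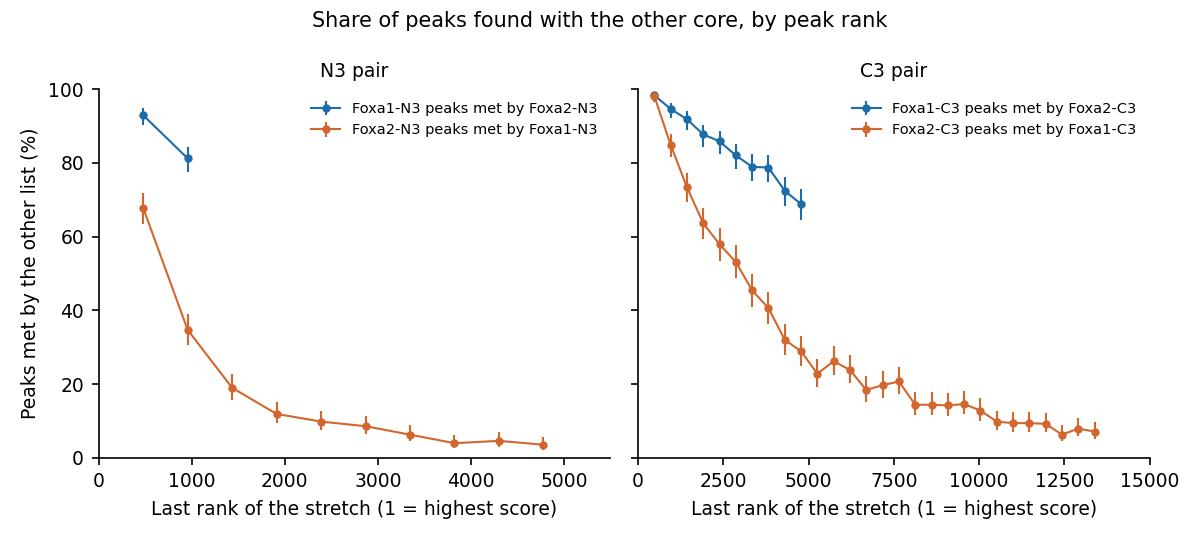
Share of peaks (percent, with 95% Wilson intervals) that met a peak of the full list of the other core, in stretches of 478 peaks ordered by score, for the N3 pair (left) and the C3 pair (right). Shares start at 98.3% and 98.1% in the C3 pair and fall with rank in all 4 curves, most steeply for the Foxa2-core lists set against the shorter Foxa1-core lists.

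The 600 regions with a peak in all 4 full lists allowed the order of the sites to be compared. Ranks were taken anew from 1 to 600 within these regions. List length still enters through their choice, since a region had to be in the 956 peaks of Foxa1-N3. Spearman's rho across these regions, which are not independent replicates, was 0.689 for the C3 pair and 0.501 for the N3 pair. It was 0.323 for the Foxa1 pair and 0.5 for the Foxa2 pair, and 0.337 and 0.5 for the pairs that share neither. A site moved by a median of 80.5 places between the C3 constructs, by 102 between the N3 constructs, by 112 between the Foxa2 constructs and by 126 between the Foxa1 constructs.

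In 76 of these 600 regions (12.7%) both Foxa1-core ranks were ahead of both Foxa2-core ranks, and in 81 (13.5%) the reverse held. By layout such complete orders were more frequent, with 127 regions (21.2%) where both N3 ranks were ahead of both C3 ranks and 147 (24.5%) the other way. The rank difference between the cores in the N3 pair and that in the C3 pair had a rho of -0.0172 across these regions, which share the 4 libraries. The difference had the same direction in 299 regions (50.1%, 46.1 to 54.1%) and the opposite direction in 298, with 3 regions tied in a pair.

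**Figure D3:**
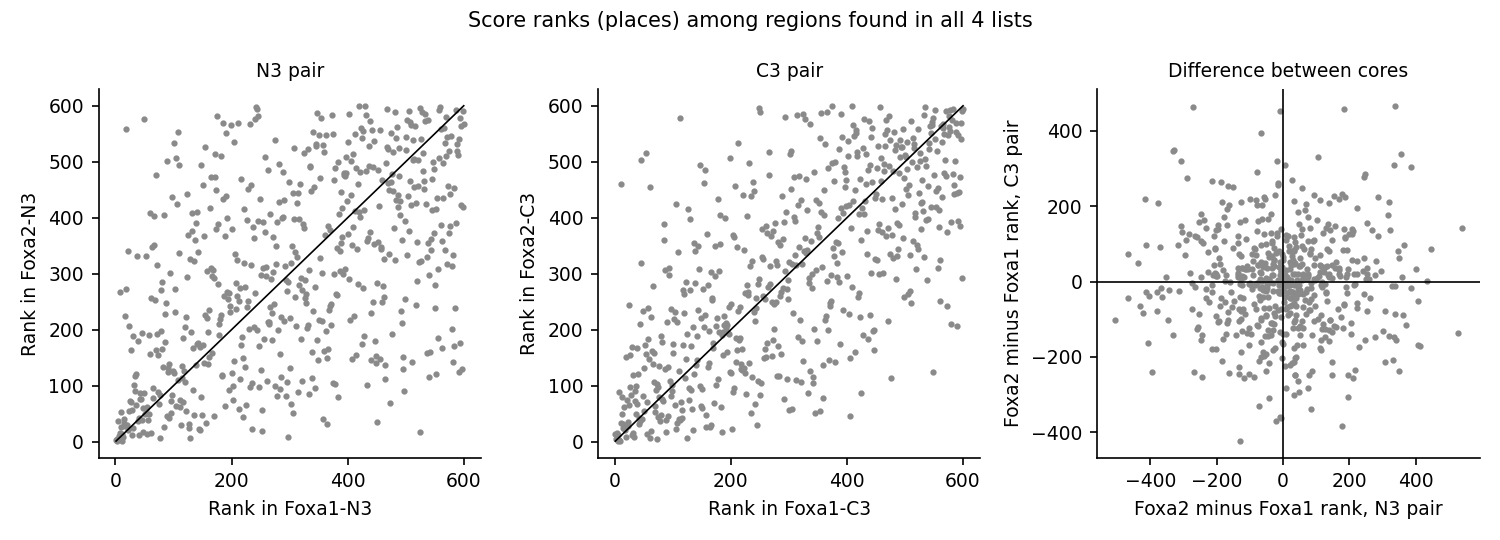
Ranks by score among the 600 regions found in all 4 lists, for the N3 pair (left) and the C3 pair (middle), where each point is a region and the line marks equal rank, and the Foxa2 minus Foxa1 rank difference in the C3 pair against that in the N3 pair (right). Points lie closer to the line in the C3 pair, and the right panel shows no slope (299 regions with the same sign, 298 with opposite signs).

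The shared regions most ahead with the Foxa1 core included 3 of the core-only regions named above, on chromosomes 5, 1 and 13. Those were chosen by the same scores for better ranks with the Foxa1 core, so this overlap is no separate result. The largest gap was on chromosome 11 (8870419 to 8870917), which ranked 242 of 600 in Foxa1-N3 and 250 in Foxa1-C3, but 598 in Foxa2-N3 and 588 in Foxa2-C3. A region on chromosome 6 (127589319 to 127590396) ranked 125 and 84 against 369 and 360. With the Foxa2 core the largest gap was on chromosome 13 (46602862 to 46603445), with 168 and 269 in Foxa2-N3 and Foxa2-C3 against 563 and 508 in Foxa1-N3 and Foxa1-C3. One on chromosome 11 (75359789 to 75360832) was among the strongest sites of the Foxa2 core, at 22 and 23, and ranked 236 and 202 with the Foxa1 core. A gap of 219 places was seen on chromosome 11 (21302387 to 21303366). Chromosome 6 (5187144 to 5187954) followed with 163 places, and the last of the 5, with 150 places, lay on chromosome 3 (19907197 to 19907805).

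The 5 shared regions chosen for the best mean rank stood near the head of the list with either core. A region on chromosome 17 (35848428 to 35849137) ranked 2, 5, 5 and 2 in Foxa1-N3, Foxa1-C3, Foxa2-N3 and Foxa2-C3. One on chromosome 4 (3734014 to 3734959) ranked 3, 1, 1 and 14, and one on chromosome 14 (47449630 to 47450540) ranked 1, 3, 3 and 17. In both of these the departing rank was that of Foxa2-C3. Next came regions on chromosome 14 (100045358 to 100046154), where Foxa1-N3 had the poorest rank, 29, and chromosome 3 (113242292 to 113243208), where Foxa2-C3 had the best, 1.

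Peaks were wider with the Foxa2 core in both layouts, and in the 600 shared regions the medians had the order of list length. In the whole lists they did not, with 413 bp in Foxa1-C3 and 407 bp in Foxa2-N3. In the 600 shared regions the median width was 317 bp in Foxa1-N3 (quartiles 272 and 381), 520 bp in Foxa1-C3 (437 and 579), 525 bp in Foxa2-N3 (467 and 586) and 638 bp in Foxa2-C3 (579 and 713). Paired over the 829 regions of the N3 pair, the Foxa2 peak was wider by a median of 183 bp (173 to 189 bp, an interval from the binomial order of the regions, which are not replicates) and was the wider one in 95.7% of them. Over the 4023 regions of the C3 pair it was wider by 119 bp (115 to 124 bp), in 86.6% of them. The other end gave differences of the same size: Foxa1-C3 peaks were wider than Foxa1-N3 peaks by 178 bp over 653 regions, and Foxa2-C3 peaks wider than Foxa2-N3 peaks by 119 bp over 4078. The narrowest peak was 242 bp in Foxa1-N3, 297 bp in Foxa2-N3, 308 bp in Foxa1-C3 and 314 bp in Foxa2-C3, and the part of fragment length, depth or caller settings in these widths was not tested.

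**Figure D4:**
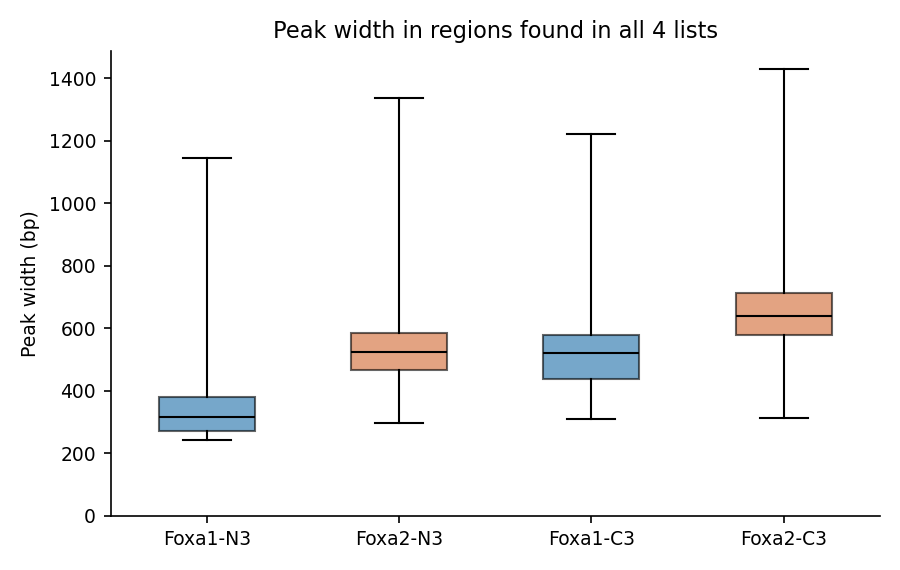
Peak width in bp in the 600 regions found in all 4 lists (box: quartiles, line: median, whiskers: narrowest and widest peak; blue, Foxa1 core; orange, Foxa2 core). Foxa1-N3 has the lowest median (317 bp) and Foxa2-C3 the highest (638 bp), with Foxa1-C3 (520 bp) and Foxa2-N3 (525 bp) close together.

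Position within a site did not follow the core. In the shared regions the midpoints of the peaks lay a median of 27.5 bp apart in the N3 pair and 24.5 bp in the C3 pair, against 27.5 bp in the Foxa1 pair and 26 bp in the Foxa2 pair. Midpoints lay within 100 bp in 93.5 to 95.2% of the regions in these 4 pairs.

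The lists of the Foxa3-core constructs played no part in choosing the core-only regions. They come from Foxa3 carrying the N-terminal domain of Foxa1 or Foxa2 (Foxa3-N1, Foxa3-N2; Foxa1 and Foxa2 antibody) or their C-terminal domain (Foxa3-C1, Foxa3-C2; Foxa3 antibody), in the same cells with Hnf4alpha. At equal length, 19 of the 28 Foxa1-core regions (67.9%, 49.3 to 82.1%) met a Foxa3-N1 peak and 6 (21.4%, 10.2 to 39.5%) met a Foxa3-N2 peak. Both shares come from the same 28 regions and from 1 library each, so their intervals give no test of the difference. Of these regions 14 were in Foxa3-N1 without Foxa3-N2 and 1 was the other way round. Foxa3-C1 met 15 (53.6%) and Foxa3-C2 met 18 (64.3%) of the 28. Foxa3-N1 shares the Foxa1 antibody and the Foxa1 N-terminal domain with Foxa1-C3, a list that defined these regions. Foxa3-N2 shares the Foxa2 antibody and the Foxa2 N-terminal domain with Foxa2-C3. The part of antibody and terminal domain in these shares was not tested.

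The Foxa2-core regions were spread more evenly. Of the 53, 20 (37.7%, 25.9 to 51.2%) met a Foxa3-N1 peak and 24 (45.3%, 32.7 to 58.5%) a Foxa3-N2 peak, with 13 and 17 in 1 of these lists alone. Foxa3-C1 met 19 (35.8%) and Foxa3-C2 met 24 (45.3%). Over all 2128 regions the shares were 37.6% for Foxa3-N1, 32.4% for Foxa3-N2, 32.7% for Foxa3-C1 and 35.4% for Foxa3-C2. The 34 regions held by exactly Foxa1-C3 and Foxa2-N3, which share neither core nor layout, had 41.2, 26.5, 38.2 and 61.8% in the same order. For the 34 held by exactly Foxa1-N3 and Foxa2-C3 the shares were 29.4, 26.5, 29.4 and 26.5%. A low share in Foxa3-N2 was also seen for the 153 regions of the N3 pair, of which 10 (6.54%, 3.59 to 11.6%) met a Foxa3-N2 peak and 69 (45.1%, 37.4 to 53.0%) a Foxa3-N1 peak. The 149 regions of the C3 pair had the reverse order, with 85 (57%, 49 to 64.7%) in Foxa3-N2 and 55 (36.9%, 29.6 to 44.9%) in Foxa3-N1. Of the 248 regions of all 4 lists, 202 (81.5%) met Foxa3-N2 and 223 (89.9%) met Foxa3-N1. With the full lists, 26 of the 28 Foxa1-core regions (92.9%) met a peak in each of the 4 Foxa3-core lists, and 47 to 53 of the 53 Foxa2-core regions did. Over all 2128 regions these shares were 89.3% for Foxa3-N1, 88.8% for Foxa3-N2, 86.9% for Foxa3-C1 and 70.7% for Foxa3-C2, so the full lists leave little room for a difference. A peak in all 4 of those full lists was met by 23 of the 28 and 44 of the 53 regions. No such share over all 2128 regions is given here, so these counts cannot set the core-only regions apart. The full lists held 7625 peaks in Foxa3-N1, 16543 in Foxa3-N2, 7533 in Foxa3-C1 and 3594 in Foxa3-C2, so equal length keeps the smallest part of Foxa3-N2; the part of that in the low Foxa3-N2 shares was not tested.

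**Figure D5:**
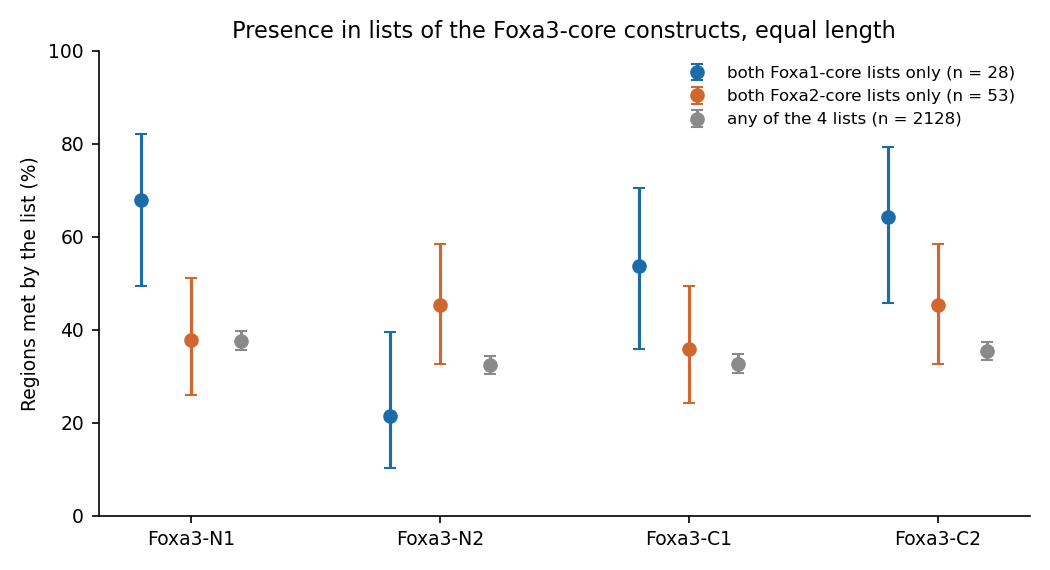
Share of regions (percent, with 95% Wilson intervals) that met one of the 956 strongest peaks of each Foxa3-core list, for the 28 regions of both Foxa1-core lists (blue), the 53 of both Foxa2-core lists (orange) and all 2128 regions (grey). The blue point is high in Foxa3-N1 (67.9%) and low in Foxa3-N2 (21.4%), while the orange points lie between 35.8 and 45.3%.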

How the data were processed

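Each deposited file lists the chromosome, start, end, name and score of the peaks of 1 ChIP library, with no header. BWA 0.6.2, MACS2 2.1.0, bedtools 2.16.2 and mm9 are named in the submitters' processing notes. Peaks were listed per library; no label states the caller settings, the filters, the use of the input or the kind of the deposited score. The score was used to rank peaks within a list and, in 1 alternative, as a minimum over the pooled lists.

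Starts were converted to count from 1. Peaks sharing at least 1 bp were merged into regions; where a list had several peaks in a region, the best ranked was used. Named regions were the 5 with the best mean rank of each core-only set and of all 4 lists, and the 5 with the largest gap between the cores in each direction; exceptions are stated. Members and comparisons were chosen with earlier results of these data known. Python 3.11.15, numpy 2.4.6, scipy 1.17.1 and matplotlib 3.10.9 were used. Merging was checked on planted lists, and overlaps equalled those of bedtools 2.31.1 in 12 of 12 ordered pairs. Input libraries and gene assignment were not used here, and no sequence is printed because no genome of the build was at hand.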

Additional observations from a re-analysis of the deposited data

Results flagged for a closer look

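At equal length, 68 regions differed between the cores in opposite directions in the 2 layouts, and 81 in the same direction. Of the 68, 34 (1.6% of 2128 regions) were held by Foxa1-N3 and Foxa2-C3 and 34 (1.6%) by Foxa1-C3 and Foxa2-N3. These 68 regions are listed because their difference between the cores changed sign with the layout. The same 2 counts of 34 serve above as the level for lists that share neither core nor layout. They rest on 1 library per construct and were not tested.

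A library that entered no comparison, titled 4a3_DA1 but labelled as Foxa1 with Hnf4alpha and an Hnf4alpha antibody, had 698 peaks, some of which fell on peaks of the 4 constructs. Its peaks met 9 of the 956 strongest Foxa1-N3 peaks (0.941%, 0.496 to 1.78%) and 16 of those of Foxa2-N3 (1.67%, 1.03 to 2.70%), as well as 5 in Foxa1-C3 (0.523%, 0.224 to 1.22%) and 9 in Foxa2-C3 (0.941%, 0.496 to 1.78%). The intervals of the cores overlap in both layouts. With the 478 strongest peaks the C3 lists did not differ, with 4 peaks (0.837%) each, and the N3 lists had 2 (Foxa1-N3) and 10 (Foxa2-N3). With 4807 peaks each, 10 Foxa1-C3 peaks (0.208%, 0.113 to 0.383%) and 25 Foxa2-C3 peaks (0.52%, 0.353 to 0.767%) met it. At that length Foxa2-N3 had 57 (1.19%, 0.916 to 1.53%), so the lists of the Foxa2 core also differed from each other. None of the 28 and none of the 53 core-only regions met the library, which allows shares of up to 12.1% and 6.76% (upper Wilson bounds). Over all 2128 regions 24 met it (1.13%, 0.759 to 1.67%), below both bounds, so the core-only regions are not set apart by this.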

How the results depend on the processing

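Counts of core-only regions depended on list length and on what counts as absent. For Foxa1 (28) they were 5 with full lists, 11 and 8 with the 478 and 239 strongest peaks, 2 when absent from the full lists of the other core and 1 above the pooled median score; for Foxa2 (53) they were 1627, 14 with 239 peaks, 2 and 706. Without Foxa1-N3, an alternative chosen after seeing the data, they were 329 and 107, by construction, since fewer lists had to agree. The index of the N3 pair was 0.155 with full lists and 0.282 with 239 peaks, that of the C3 pair 0.278 and 0.37. Same-core minus same-layout similarity (-0.101) was negative in all 7 alternatives, nearest to 0 with full lists (-0.0151), and -0.051 without Foxa1-N3 at 4807 peaks. Complete rank orders without Foxa1-N3 made up 32.3 and 32.7%, again with fewer lists. The share differing the same way in both layouts was 41.5% with 239 peaks. Width differences were 128 and 113 bp above the narrowest peak and 196 and 130 bp in regions of all 4 lists (N3 and C3 pair). In full Foxa3-core lists, Foxa1-core regions were met in 92.9% by each, Foxa2-core regions in 96.2% (Foxa3-N1), 100% (Foxa3-N2), 98.1% (Foxa3-C1) and 88.7% (Foxa3-C2). Of 61 alternatives, 32 moved a value this far. The same-core difference kept its sign, but other orders turned. With full lists the index of Foxa1-C3 with Foxa2-N3 (0.31) passed that of the C3 pair (0.278). The N3 pair (0.155) then fell below the Foxa2 pair (0.274). The order of the core-only counts without Foxa1-N3 (329 for Foxa1, 107 for Foxa2) turned by construction. Regions differing the same and the opposite way (81 and 68) were 47 and 48 at 478 peaks and 22 and 31 at 239. The intervals of the share overlap and include an even split, so these counts show no turn. Merging within 1 kb or by midpoints within 200 bp moved no value that far. What caused these shifts was not tested. List length and unknown depth limit what absence means.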
